A study of Homo sapiens with 34 samples.

Results

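The comparison set the 3 COLO320 DM peak lists titled ecSE4-perturbation against the 3 titled ecSE3-perturbation, 6 of the 34 lists of the series. The lists were taken by sample title and compared along a 250 kb window of chromosome 8 (hg38, upwards from 127650001) that holds MYC and the lower end of PVT1. The study profiled H3K9 methylation by CUT&Tag, an assay that cuts and tags chromatin where an antibody has bound, in PC3 DM and COLO320 DM cells after CRISPR-based epigenomic perturbation. COLO320 DM is an established colorectal adenocarcinoma line whose MYC copies sit on circular extrachromosomal DNA (ecDNA).

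All COLO320 DM groups used here received 700 ng of sgRNA plasmid with lipofectamine 3000 and were collected 3 days later, and each library came from 50000 nuclei. The groups were ecSE4 perturbation (3 lists), ecSE3 perturbation (3), the combination ecSEcombo (3) and the vector (3). Fits over the whole genome also included the ecSE1 (3) and ecSE2 (3) perturbations of the same line, to share 1 estimate of the spread. The rabbit antibody is labelled anti-H3K9me, and how many methyl groups it recognises is not stated. The labels do not say where the ecSE elements lie, which effector the guides recruit or what the combination contains. Nothing says that the 3 libraries of a group came from separate cultures, so a p-value here reflects only library-to-library spread, which may be technical.

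H3K9 methylation is a mark of heterochromatin that is read by HP1 proteins and is typically low at active promoters and enhancers. MYC encodes a transcription factor that drives growth and proliferation and is amplified in many tumours. CASC11, just below MYC in coordinates, and PVT1, above it, are long noncoding RNA genes, and PVT1 hosts microRNA genes of which MIR1204 lies near its start. The PVT1 promoter is known to compete with MYC for enhancers, and both MYC and PVT1 are transcribed from their lower ends.

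Positions are given below in kb from the lower end of MYC (127735434), negative towards CASC11 and positive towards PVT1. These are distances on the hg38 reference. How the sequence is arranged on the ecDNA copies was not examined, so distances, sides and gaps may differ there. In RefSeq on GRCh38.p14, the same build, CASC11 spans 127700608 to 127733967, MYC 127735434 to 127742951, PVT1 127794524 to 128101256, MIR1204 127795962 to 127796028 and the lncRNA LOC105375754 127663280 to 127669024. The table used here gives no strand or exons.

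The authors' lists held 21350, 18247 and 25435 peaks in ecSE4, against 24032, 16721 and 18295 in ecSE3. Vector lists held 16471, 9385 and 24353 peaks. Sequencing depth is unknown, because no read totals were used. The lowest local background recovered from a list, which rises with depth, was 0.717 to 0.782 fragments in ecSE4, 0.702 to 0.872 in ecSE3 and 0.629 to 0.764 in vector lists. The window held 48, 50 and 63 peaks in ecSE4 lists, against 62, 64 and 56 in ecSE3 lists. Among the 100 best peaks of a list by q-value, 9, 9 and 9 lay in the window in ecSE4, against 11, 13 and 11 in ecSE3, with 4, 3 and 3 in vector lists.

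**Figure D1:**
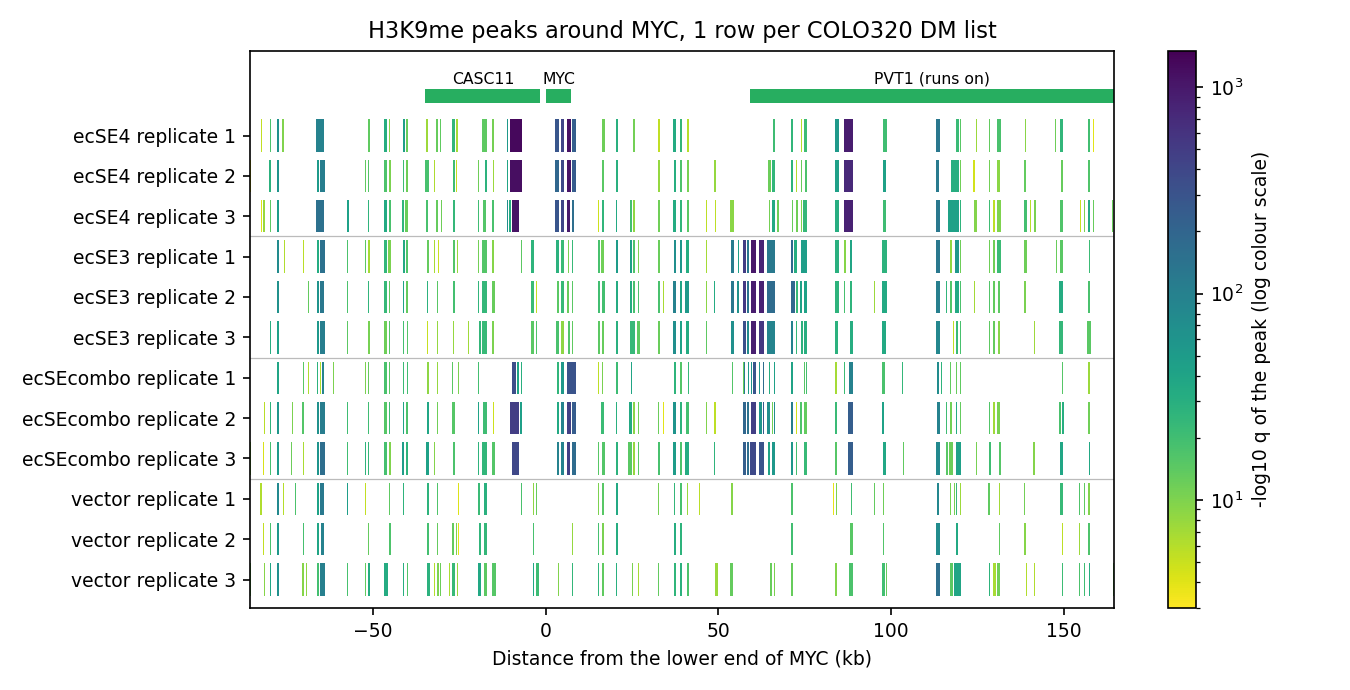
Peaks of the window in each COLO320 DM list (1 row per list, ecSE4 at the top, then ecSE3, ecSEcombo and vector), against distance from the lower end of MYC in kb, coloured by -log10 q on a log colour scale, with genes as green bars. The darkest peaks of the 3 ecSE4 lists lie at CASC11, in MYC and at +88.6 kb, and those of the 3 ecSE3 lists lie around the lower end of PVT1.

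By q-value, the best ecSE4 peak and the best ecSE3 peak of the window lay on opposite sides of MYC. In all 3 ecSE4 lists the best peak of the window had its summit in CASC11 at -9.38 kb (127726057 in replicate 1) and ranked 2 in the whole list. By fragments at the summit, the tallest ecSE4 peak of each list lay inside MYC instead, at +6.91 kb. In ecSE3 lists the best peak of the window had its summit at +60.6 kb (127796027), inside MIR1204 and PVT1, and ranked 3, 2 and 2. Vector lists had their best window peaks at ranks 28, 35 and 26.

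At the CASC11 site, peaks covered 4012, 4123 and 3071 bp of a 4623 bp stretch (-11.3 to -6.67 kb) in ecSE4 lists. The same stretch was covered over 289, 0 and 0 bp in ecSE3 lists and over 210, 0 and 0 bp in vector lists. The authors' fold, which sets the summit against MACS2's estimate of local background in that library, was 4.93, 5.53 and 5.27 in ecSE4. The whole numbers of fragments at those summits, recovered from fold and p-value, were 3816, 3089 and 3023. The single ecSE3 peak, in replicate 1 at -6.84 kb, had 123 fragments and rank 2949, and the single vector peak, in replicate 1 at -6.85 kb, had 143 fragments and rank 598. The ecSE4 lists were all high here and the ecSE3 lists were at the level of the vector lists or had no peak. Fold and fragments belong to single peaks in single libraries, so they are descriptions and carry no test. In these bulk nuclei a larger share of marked cells or copies and more mark per copy cannot be told apart.

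MYC itself was covered more in ecSE4 than in ecSE3, and both covered more than the vector. Of the 7518 bp of MYC, peaks covered 3403, 3332 and 3144 bp in ecSE4, against 2331, 2244 and 1909 bp in ecSE3. Vector lists covered 0, 0 and 247 bp, and combination lists 2760 ± 209 bp (SD, n = 3). The means were 3293 ± 134 bp in ecSE4 (43.8% of the gene) and 2161 ± 223 bp in ecSE3 (28.7%; SD, n = 3 each). The groups did not overlap, with a difference of 1132 bp (two-sided exact permutation test, p = 0.1, Benjamini-Hochberg adjusted over 6 measures p = 0.2). With 3 lists against 3 the smallest p this test allows is 0.1, so none of the region comparisons could pass 0.05.

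Summit height separated the groups at MYC far more than covered length did. The best MYC peak of each ecSE4 list had its summit at +6.91 kb (127742345), near the upper end of the gene, with 4655, 3883 and 3731 fragments and rank 3 in every list. The best MYC peaks of ecSE3 lists had 160, 150 and 117 fragments at ranks 559, 774 and 1187, with summits between +3.28 and +5.09 kb. Vector replicates 2 and 3 had summits of 72 and 115 fragments at +7.74 kb, and replicate 1 had no peak. The authors' fold differed much less, at 3.65, 4.05 and 3.85 in ecSE4 and 3.03, 2.79 and 2.82 in ecSE3. The local background that the fold divides by was 957 to 1275 fragments at the ecSE4 summits and 40.8 to 53.2 at the ecSE3 summits. Divided by the lowest background of its list, a rough allowance for depth, the MYC summit stood at 5136 to 5952 in ecSE4 and 167 to 196 in ecSE3.

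**Figure D2:**
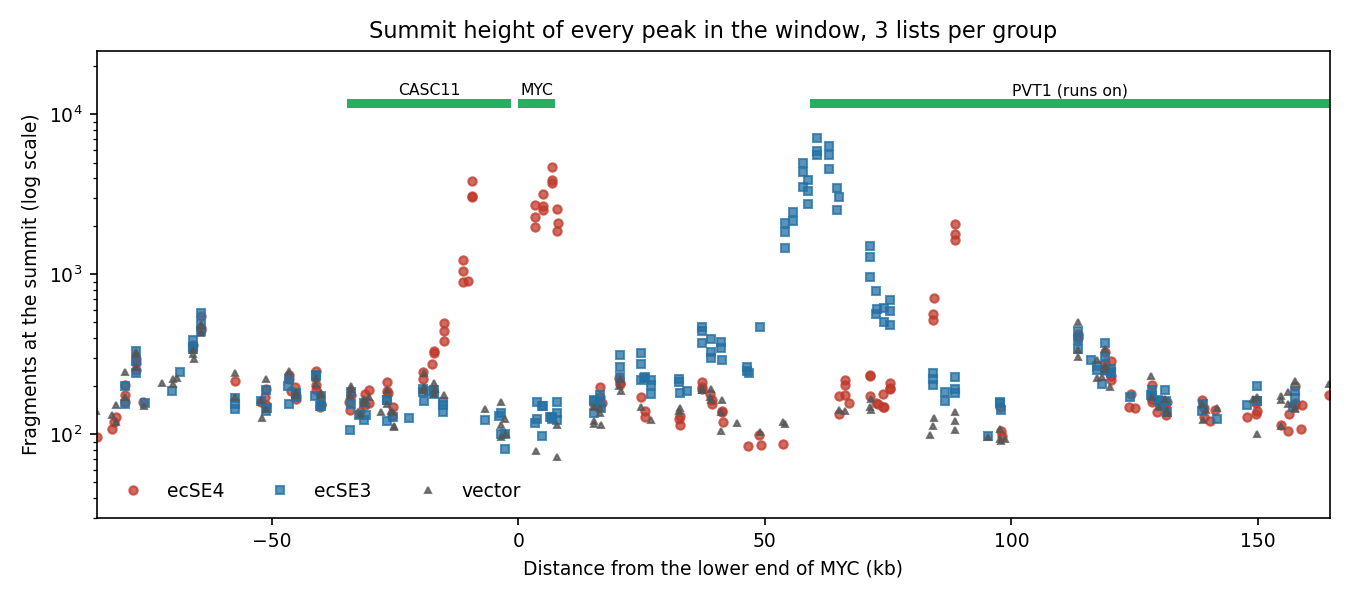
Fragments at the summit of each peak in the window (log axis) against distance from the lower end of MYC in kb, 3 lists each of ecSE4 (red circles), ecSE3 (blue squares) and vector (grey triangles). ecSE4 summits reach 3023 to 3816 fragments at CASC11 and 3731 to 4655 at MYC, and ecSE3 summits reach 5546 to 7098 at the lower end of PVT1.

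The lower end of MYC, where its transcription starts, was not covered in any list of the 4 groups shown. In ecSE4 lists the uncovered stretch around it ran over 9682, 9505 and 10457 bp, with the last peak below ending at -6.84, -6.67 and -7.62 kb and the first peak above starting at +2.84 kb in every list. In ecSE3 lists it ran over 6345, 5715 and 5600 bp, since peaks reached up to -3.24, -2.50 and -2.50 kb and began again at +3.10, +3.22 and +3.10 kb. Combination lists left 10059 to 10961 bp uncovered, overlapping the ecSE4 range, and vector lists 5501 to 17579 bp. The 5 kb bin just below MYC (127730001 to 127735000, upper end of CASC11) had 0, 0 and 0 covered bp in ecSE4 lists, against 871, 1208 and 1284 bp in ecSE3 lists. Vector lists had 815, 539 and 1229 bp there, and combination lists, like ecSE4 lists, had no peak. The difference between ecSE4 and ecSE3 was -1121 bp (SE 256, limma adjusted p = 0.135). Local background at the flanking ecSE4 summits was 558 to 774 fragments at CASC11 and 957 to 1275 at MYC, and 35.8 to 43.8 at the ecSE3 summits of this bin. The part of that background in the missing ecSE4 peaks was not tested.

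At the lower end of PVT1 the order was turned round. Over the stretch from +57.1 to +66.4 kb, peaks covered 557, 1833 and 1303 bp in ecSE4 lists, against 6844, 6665 and 6654 bp in ecSE3 lists. Vector lists had 850 bp in replicate 3 and none in replicates 1 and 2. The best ecSE4 peaks of the stretch had 175, 217 and 204 fragments at ranks 1100, 482 and 378, against 7098, 5924 and 5546 fragments at ranks 3, 2 and 2 in ecSE3. The fold again did not follow the height, at 2.43, 2.39 and 2.90 in ecSE4 and 2.55, 2.66 and 2.73 in ecSE3, over a local background of 69.6 to 90.2 fragments in ecSE4 and 2029 to 2785 in ecSE3. MIR1204, a microRNA gene of 67 bp, was covered over 0 bp in each ecSE4 list, 67 bp in each ecSE3 list, 67 bp in each combination list and 0 bp in each vector list.

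The run of called peaks around the best peak was longer in ecSE3 than in ecSE4. Chaining peaks at most 3 kb apart from the best peak of the window gave an ecSE4 block of 4450, 4627 and 3671 bp around the CASC11 site, against an ecSE3 block of 12823, 12695 and 12685 bp from about +53.6 to +66.4 kb. Peaks filled 83.7 to 90.2% of the ecSE4 block and 58.5 to 62.6% of the ecSE3 block. With gaps of up to 5 kb allowed the blocks were 11502 to 12835 bp in ecSE4 and 21980 to 43170 bp in ecSE3. The ecSE4 block did not include the MYC peaks under either gap, and the ecSE3 block took in the +71.4 kb site only under the wider one. Both blocks rest on where peaks were called, and the part of local background in the gaps was not tested.

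Between MYC and PVT1, ecSE4 covered less than ecSE3 and lay near the vector. Covered length in this 51572 bp stretch was 4930, 4898 and 6656 bp in ecSE4, against 10084, 10229 and 9212 bp in ecSE3 and 3728, 3156 and 6150 bp in vector lists. The difference was -4347 bp with no overlap between ecSE4 and ecSE3 (exact permutation test, p = 0.1, adjusted p = 0.2). Summits of the ecSE3 lists were already higher at +37.3 kb, with 193 to 211 fragments in ecSE4, 373 to 466 in ecSE3 and 188 to 194 in vector lists. At +54.0 kb the ecSE3 lists had 1466 to 2099 fragments, while ecSE4 had a peak only in replicate 3, with 87 fragments. At both sites every ecSE3 list lay above all vector lists. The ranges of ecSE4 and vector lists overlapped at +37.3 kb, and at +54.0 kb no ecSE4 list lay above all vector lists.

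Reach into PVT1 ran differently again. At +71.4 kb, the ecSE4 summits had 230, 236 and 173 fragments, against 1508, 1291 and 955 in ecSE3 and 141 to 166 in vector lists. At +88.6 kb (127824000 in ecSE4 replicate 1), the order was reversed, with 2074, 1646 and 1785 fragments in ecSE4 and 229, 191 and 182 in ecSE3. This second PVT1 site ranked 5 in each ecSE4 list and 255, 546 and 288 in the ecSE3 lists. It covered 2559, 2572 and 2585 bp in ecSE4, 1115, 1014 and 705 bp in ecSE3, and 287, 695 and 1108 bp in vector lists. Its fold was higher than at the CASC11 and MYC sites of the ecSE4 lists, at 6.34, 6.44 and 7.01, against 2.90, 2.63 and 2.95 in ecSE3. At +113.5 kb the groups overlapped, with 397 to 422 fragments in ecSE4, 342 to 441 in ecSE3 and 303 to 502 in vector lists.

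Over the whole of PVT1, whose 306733 bp run past the window, the covered lengths of the 2 perturbations overlapped. The values were 24844, 25345 and 38048 bp in ecSE4, against 29464, 30489 and 26847 bp in ecSE3 (29412 ± 7483 and 28933 ± 1878 bp; SD, n = 3 each). The groups overlapped and the difference was 479 bp (exact permutation test, p = 1). Leaving out ecSE4 replicate 3 turned the difference to -3839 bp, and leaving out ecSE3 replicate 3 turned it to -564 bp. Inside the window PVT1 was covered over 16875 ± 4451 bp in ecSE4 and 18397 ± 1449 bp in ecSE3, and vector lists covered 8253 ± 3896 bp (SD, n = 3 each). Beyond the window the values were 12537 ± 3117 bp in ecSE4, 10536 ± 1047 bp in ecSE3 and 9635 ± 1903 bp in the vector.

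CASC11, of 33360 bp, was covered over 7699 ± 1019 bp in ecSE4 and 5528 ± 301 bp in ecSE3, with no overlap, and over 5272 ± 2247 bp in the vector (SD, n = 3 each). The stretch from the window's start to MYC, which holds CASC11, was covered over 15616, 13359 and 14437 bp in ecSE4 lists, against 12707, 11021 and 11404 bp in ecSE3 lists. These groups did not overlap either, with a difference of 2760 bp (exact permutation test, p = 0.1, adjusted p = 0.2), while vector lists ran from 8077 to 15378 bp and overlapped both. Over the whole window the totals of ecSE4 and ecSE3 overlapped, with 40133 ± 5264 bp in ecSE4, 42111 ± 2717 bp in ecSE3 and 23319 ± 9691 bp in the vector (SD, n = 3 each; ecSE4 minus ecSE3 -1978 bp, exact permutation p = 0.6, adjusted p = 0.72). The mean position of all covered bp was +35.6 ± 9.01 kb in ecSE4 and +39.4 ± 1.30 kb in ecSE3 (difference -3.75 kb, exact permutation p = 0.5, adjusted p = 0.72), and without ecSE4 replicate 1 the difference was 0.136 kb. The 3 ecSE4 lists stood at +27.9, +33.6 and +45.5 kb, on both sides of the ecSE3 lists at +38.9, +40.9 and +38.4 kb. Total length and mean position therefore did not separate the groups, whereas the position of the tall sites did.

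**Figure D3:**
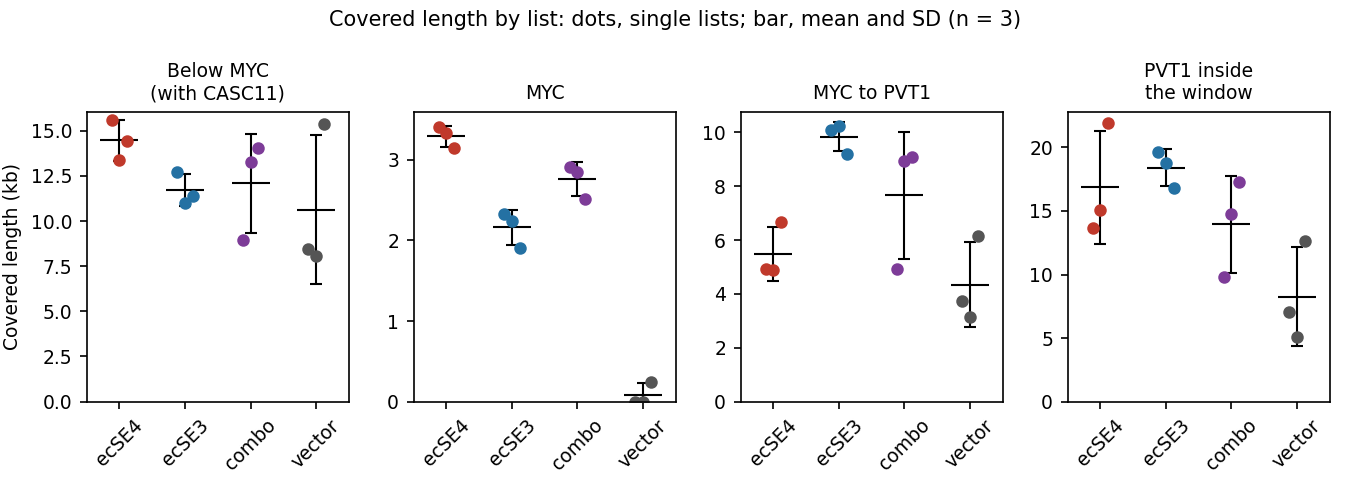
Covered length in kb in 4 regions, 1 dot per list with the mean and SD as bars (n = 3 lists), for ecSE4, ecSE3, ecSEcombo and vector from left to right. ecSE4 lies above ecSE3 without overlap below MYC and in MYC, ecSE3 lies above ecSE4 without overlap between MYC and PVT1, and the groups overlap in PVT1 inside the window.

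A fit over the whole genome placed these differences among all others. Covered bp per 5 kb bin was compared with limma in all 18 COLO320 DM libraries, with 40477 bins tested on autosomes and X. At adjusted p under 0.05, 4 bins passed (0.00988% of those tested), 2 higher in ecSE4 (0.00494%) and 2 lower (0.00494%), and all 4 lay in the window. On the log2(bp + 100) scale only the CASC11 bin passed (limma adjusted p = 0.0475), and the 3 PVT1 bins did not (limma adjusted p = 0.0803, 0.455 and 0.874). At an unadjusted p under 0.05, 2469 bins passed (6.1%), and in the window 12 of 46 tested bins did so. Groups did not overlap in 6 window bins with ecSE4 higher and in 9 with ecSE4 lower, beside 2.07% and 1.43% of all tested bins. The median difference over the tested window bins was -30.3 bp and over all tested bins 0 bp.

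The bins higher in ecSE4 were 1 in CASC11 and 1 in PVT1. The CASC11 bin (127725001 to 127730000) was covered over 3575, 3686 and 2524 bp in ecSE4, against 289, 0 and 0 bp in ecSE3 (difference 3165 bp, SE 315, limma adjusted p = 7.42e-15). The PVT1 bin (127820001 to 127825000) was covered over 3095, 3107 and 2995 bp in ecSE4, against 1435, 1303 and 877 bp in ecSE3 (difference 1861 bp, SE 314, limma adjusted p = 0.000153), and this bin did not pass without the filter on covered libraries (limma adjusted p = 0.0563). In neither bin did the groups overlap.

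The bins lower in ecSE4 were neighbours at the lower end of PVT1. The first (127790001 to 127795000), which reaches into PVT1 by its last bases, was covered over 0, 0 and 0 bp in ecSE4, against 1880, 1846 and 1590 bp in ecSE3 (difference -1772 bp, SE 247, limma adjusted p = 2.31e-07). The second (127795001 to 127800000), which holds MIR1204, was covered over 0, 250 and 0 bp in ecSE4, against 3412, 3338 and 3232 bp in ecSE3 (difference -3244 bp, SE 311, limma adjusted p = 1.10e-15). Each vector, ecSE1 and ecSE2 list had 0 bp in both bins. Both bins meet the filter of 3 covered libraries through the ecSE3 and combination lists, which are high there. Their p-values in the filtered fit are therefore descriptions only. Without that filter they had limma adjusted p = 0.00545 and 3.93e-06.

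MYC's own bins did not pass. The bin over the upper part of MYC (127740001 to 127745000) was covered over 3104, 3132 and 2426 bp in ecSE4, against 1680, 1826 and 1401 bp in ecSE3, without overlap (difference 1252 bp, SE 309, limma adjusted p = 0.298). The bin over its lower part (127735001 to 127740000) was covered over 1398, 1319 and 1306 bp in ecSE4, against 1010, 777 and 830 bp in ecSE3 (difference 469 bp, SE 263, limma adjusted p = 0.871). A bin between MYC and PVT1 (127760001 to 127765000) was covered over 360, 0 and 736 bp in ecSE4, against 1517, 1440 and 1976 bp in ecSE3 (difference -1279 bp, SE 286, limma adjusted p = 0.107). The PVT1 bin from 127805001 to 127810000 was covered over 769, 1106 and 1161 bp in ecSE4, against 2291, 2142 and 1763 bp in ecSE3 (difference -1053 bp, SE 306, limma adjusted p = 0.707).

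**Figure D4:**
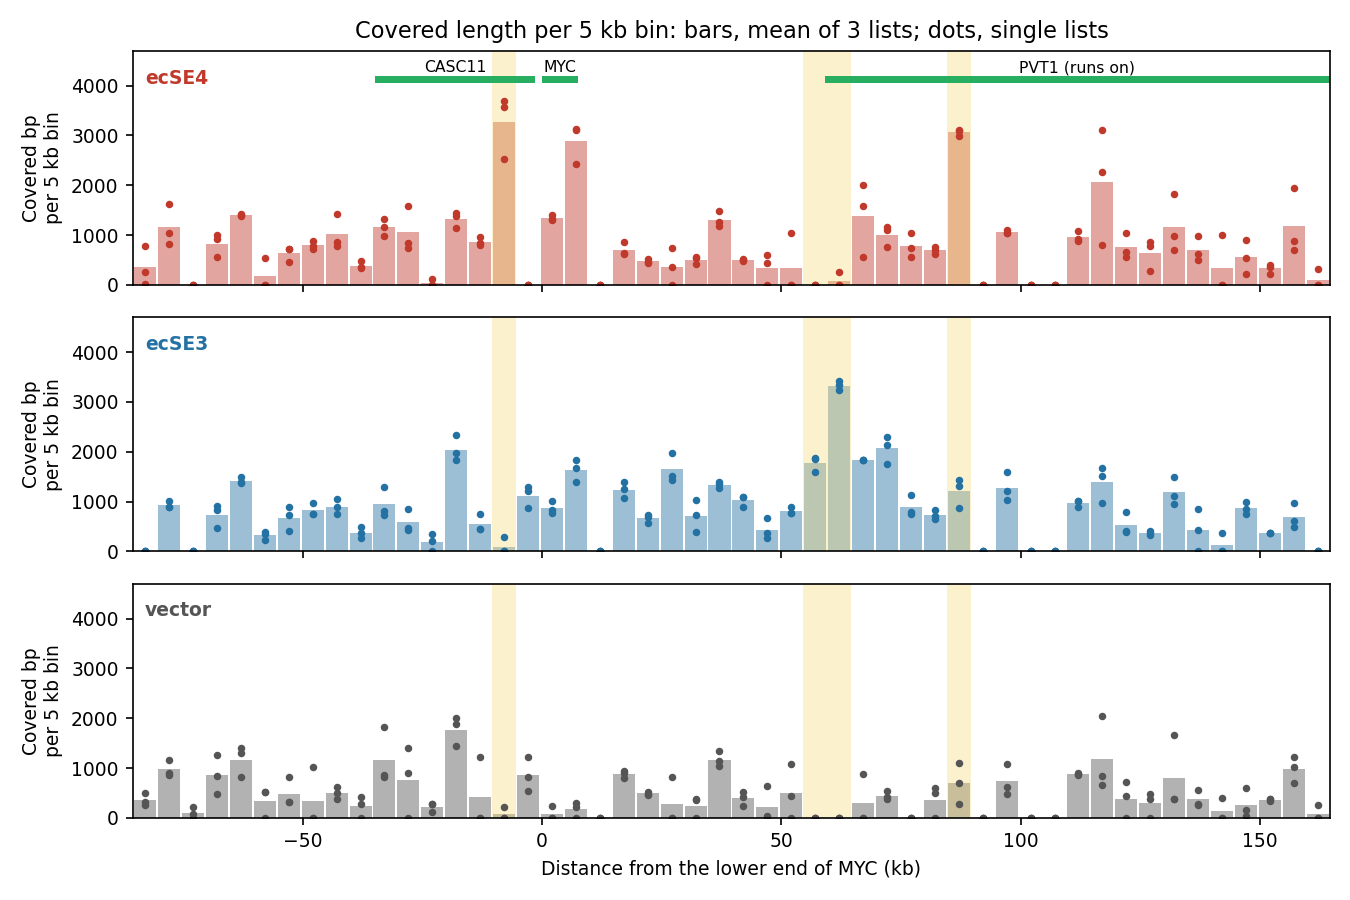
Covered bp in each 5 kb bin of the window for ecSE4 (top), ecSE3 (middle) and vector (bottom), as the mean of 3 lists (bars) and single lists (dots), against distance from the lower end of MYC in kb, with the 4 bins at limma adjusted p under 0.05 shaded yellow. The shaded bins at CASC11 and at about +87 kb are high in ecSE4, and the neighbouring shaded bins at the lower end of PVT1 are high in ecSE3.

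Summit heights of ecSE4 and ecSE3 were set against each other only in bins with a summit in all 6 lists. This left out some of the most different bins, among them those of the best ecSE4 peak in CASC11 and the best ecSE3 peak at MIR1204. Of the window's 5 kb bins, 30 had a summit in all 6 lists, and the ratio of the mean highest summit in ecSE4 to that in ecSE3 had a median of 0.984. It lay between 0.596 and 1.65 in 20 of these bins. It was 2 or more in 5 bins, centred at -12.9 kb (7.08, CASC11), +2.07 kb (17.5, MYC), +7.07 kb (28.1, MYC), +82.1 kb (2.68, PVT1) and +87.1 kb (9.14, PVT1). It was 0.5 or less in 5 bins, centred at +37.1 kb (0.47), +42.1 kb (0.391), +67.1 kb (0.0658, PVT1), +72.1 kb (0.17, PVT1) and +77.1 kb (0.338, PVT1). LOC105375754, at the far end of the window, lay by a peak at -64.4 kb with 449 to 551 fragments in ecSE4, 439 to 571 in ecSE3 and 428 to 482 in vector lists.

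The combination lists had tall peaks at the main sites of both perturbations, at lower heights, but not at every site. At the CASC11 site the summit had 3023 to 3816 fragments in ecSE4 and 824 to 1270 in the combination. At MYC it had 3731 to 4655 in ecSE4 and 1071 to 1780 in the combination, at the same position, +6.91 kb. At MIR1204 it had 5546 to 7098 in ecSE3 and 1514 to 2727 in the combination. At +88.6 kb it had 1646 to 2074 in ecSE4 and 279 to 564 in the combination. Around +54.0 kb the ecSE3 lists had 1466 to 2099 fragments, and the combination had a peak only in replicate 1, with 372. Depth is not matched between these lists, so no ratio between groups was tested.

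Gene by gene, no difference passed. Covered length per gene and 2 kb on each side, on the log2(bp + 100) scale, was fitted with limma for 11964 genes in the same 18 libraries. At adjusted p under 0.05 none passed (0%), and 466 had an unadjusted p under 0.05. MIR1204, with 0 bp in ecSE4 lists and 2719 ± 81.3 bp in ecSE3 lists (SD, n = 3), had a limma adjusted p of 0.0535. CASC11 differed by 0.46 (SE 0.39), MYC by 0.73 (SE 0.75), PVT1 by -0.07 (SE 0.23) and LOC105375754 by 0.08 (SE 0.57) on the log2 scale, each with a limma adjusted p of 1. Of 24 genes listed for the MYC neighbourhood on 8q24, 19 were tested and none passed, with a median log2 difference of 0.01. Of 13 genes of the MYC and MAX transcription factor network 2 were tested, and of 6 genes of the 13q12 homeobox neighbourhood (CDX2, PDX1 and neighbours) 5 were tested, and none of these passed. The median over all tested genes was 0.

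**Figure D5:**
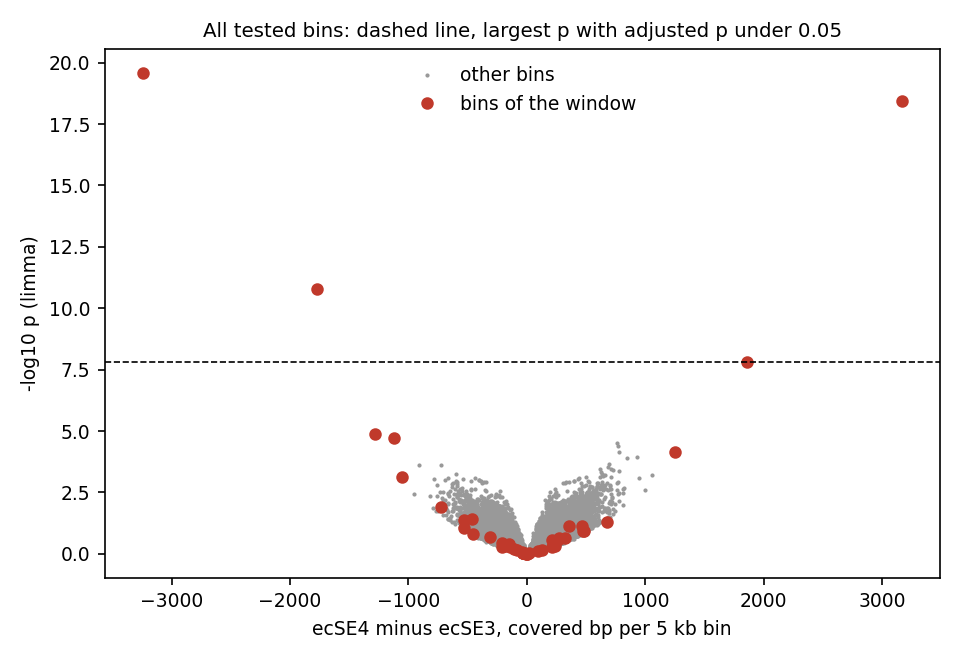
Difference in covered bp per 5 kb bin, ecSE4 minus ecSE3 (horizontal axis), against -log10 of the limma p (vertical axis), for the 40477 tested bins, with the window's bins in red and the others in grey. The 4 bins above the dashed line, 2 on each side of 0, are bins of the window.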

How the data were processed

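CUT&Tag peak lists on hg38, 1 per library, were used as the authors deposited them. The tools were MACS2 2.2.7.1, Bowtie2 2.3.5, Trim Galore 0.6.6, bedtools and SAMtools, per the submitters' processing notes. An FDR of 0.001 and removal of blacklisted regions are stated in the names of the deposited lists. Not given in the sources used here are the settings, any control library and the treatment of duplicates. The deposited columns are a score per peak, a fold enrichment over local background, and −log10 of a p-value and of a q-value, all the authors' own. The score was not used. The other values describe or rank peaks within 1 list (by q-value, then fold), and ranks from lists of different lengths show no change.

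Groups and replicate numbers came from the titles. The members, window, lists and tests were chosen with earlier results of these data known. Overlapping peaks were merged and covered bp counted per region, per 5 kb bin and per gene with 2 kb on each side. Exact permutation tests, two-sided, were applied to region values, adjusted over 6 measures. Bins and genes covered in at least 3 libraries were fitted with limma 3.58.1 (trend) over the 18 COLO320 DM libraries in 6 groups, with Benjamini-Hochberg adjustment. Genes were named if they overlapped the window or passed, and bins if they passed in the window or were the 5 per direction outside it with the smallest p. Window bins that did not pass were named after their values were seen.

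Whole fragments at a summit were solved from fold and p, with a tolerance of 0.0005 in −log10 p. Between 2003 and 2347 peaks were sampled in each list, and at least 99.8% of them gave a whole number. Intervals for counting error are not given, since depth is unknown. The fit was tested on simulated data, where false calls exceeded the nominal rate, more so for bins than for genes. The adjusted p-values are therefore probably too small. The numbers shared by ecSE4 and ecSE3 replicates did not pair them, since deviations of same-numbered libraries correlated at 0.026, -0.012 and -0.005 over 34807 bins. RefSeq names (GRCh38.p14) were used. Computations used R 4.3.3 and Python 3.11.15 with scipy 1.17.1, pandas 2.3.3, numpy 2.4.6 and matplotlib 3.10.9. Alternatives were q-values of 1e-05 or less, lists of equal length (9385 peaks), each replicate left out, a replicate block, other bin sizes, scales and filters, and summits in place of covered bp.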

Additional observations from a re-analysis of the deposited data

How the results depend on the processing

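Below MYC, in MYC, between MYC and PVT1 and over the window, the sign of the difference held under every alternative run. Leaving out 1 list in turn gave 2187 to 3316 bp, 1006 to 1217 bp, -4928 to -4049 bp and -5005 to -227 bp in these 4 regions. For PVT1 the difference of 479 bp turned to -16.7 bp at −log10 q of at least 5, -1700 bp in lists of equal length and -1522 bp inside the window, with -3839 to 2763 bp when 1 list was left out. The mean position, at -3.75 kb, turned to 0.212 kb with summits and ran from -8.69 to 0.136 kb with 1 list left out. The cause was not tested. The CASC11 bin and both bins at the lower end of PVT1 passed in 13 of 13 fits on bp, and the bin at 127820001 in 12, with adjusted p 0.0563 without a filter. On log2(bp + 100), 1 bin passed higher (CASC11, limma adjusted p = 0.0475) and 0 lower. Over the genome, no filter gave 3 higher and 5 lower bins, with 1 higher in the window, and leaving out 1 list gave 2 to 4 higher and 2 to 3 lower, with 2 and 2 in the window. Without ecSE4 replicate 2, PCDH15 and a bin on chromosome 1 joined the higher ones. Bins of 10 kb gave 1 lower bin in the window, 127790001 to 127800000 (limma adjusted p = 2.07e-29), which spans both lower 5 kb bins. They gave another below the window on chromosome 8 (126790001 to 126800000, -151 bp, limma adjusted p = 0.00964). The replicate block gave 4 lower bins, all in the window, adding those at 127730001 (limma adjusted p = 0.0413) and 127760001 (0.0165). With this pairing, region differences were as large and the exact p of the separated regions was 0.25, the smallest that 3 pairs allow. It changed no other call. Among genes, 1 passed as lower, MIR1204, at −log10 q of at least 5 (limma adjusted p = 0.0347), in lists of equal length (0.0132), without ecSE1 replicate 2 (0.0326) and with 500 bp added before the log (0.00103). Depth is unknown and limits every comparison of heights between lists.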

Other observations

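Outside the window no 5 kb bin passed in the main fit, with the filter of 3 covered libraries, and the smallest limma adjusted p was 0.176. The 5 bins with the smallest p where ecSE4 was higher lay in CNTN4 and PCDH15, which encode adhesion proteins, in TSPAN9, in LINC01322 and on chromosome 5 outside a gene. The CNTN4 bin (chromosome 3, 2915001 to 2920000) had 757 ± 172 covered bp in ecSE4 lists, against 0 bp in ecSE3 lists and 0 bp in vector lists (SD, n = 3 each, limma adjusted p = 0.176). In each of these 5 bins the 3 ecSE4 lists alone meet the filter of 3 covered libraries. Such a bin can be tested because ecSE4 is high there, so its p-value is a description only. The 5 bins lower in ecSE4 lay in LOC124901597, in ZNF445 and outside genes on chromosomes 1, 1 and 8. There the 3 ecSE3 lists are enough to meet that filter. The chromosome 8 bin and the chromosome 1 bin from 68550001 also meet it without ecSE3, through ecSE4 and vector lists. The chromosome 8 bin (127035001 to 127040000), below the window, had 2263 ± 654 bp in ecSE4, 2991 ± 472 bp in ecSE3 and a mean of 2795 bp in vector lists (SD, n = 3, limma adjusted p = 0.683). Without ecSE4 replicate 1 it passed, with a difference of -1102 bp (limma adjusted p = 0.0076), and without a filter it passed at -728 bp (0.00227). Without a filter the bins in CNTN4 (limma adjusted p = 0.0115) and PCDH15 (0.04) passed as higher in ecSE4, and a CASC8 bin (127440001 to 127445000, -492 bp, limma adjusted p = 9.25e-05) and a bin outside genes (127155001 to 127160000, -351 bp, 0.0182) on chromosome 8 as lower.

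The sites of the 2 best peaks of ecSE4 replicate 1 outside the window, ranks 1 and 4 of that list, had a peak in every ecSE4, ecSE3 and vector list. A peak of about 250 bp on chromosome 15 (67840040 to 67840296 in ecSE4 replicate 1) had 1553, 2129 and 651 fragments in ecSE4 lists, against 1105, 1118 and 396 in ecSE3 lists, and 349, 186 and 196 in vector lists. Its fold was 34.8, 35.1 and 35.9 in ecSE4, 37.1, 39.2 and 32.9 in ecSE3, and 37.3, 33.2 and 30.5 in vector lists. Combination lists had 2456, 3087 and 2049 fragments there. All these groups received sgRNA plasmid, and whether the fragments at this site came from the chromosome or from the plasmid was not tested. A peak on chromosome 16 (33545442 to 33547291) had 2792, 2422 and 3433 fragments in ecSE4, 3121, 2632 and 2884 in ecSE3, and 2000, 2108 and 3479 in vector lists. No gene of the table used here lies at either summit.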
